A study of Mus musculus with 8 samples.

Results

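The ubiquitin ligases, conjugating enzymes and deubiquitinases examined here were 177 protein-coding genes of the mouse. They were chosen by symbol and site, as genes named Usp, Rnf, Trim, Fbxo, Fbxl, Fbxw, Ube2, Ube3, Cul or Klhl with a number or letter suffix and at least 1 mapped m6A-eCLIP site in the gene span. They were 177 of 6807 protein-coding genes with a site in the span. Of these, 168 had at least 1 site that lay in no other protein-coding span, and together they held 832 such sites of 31917 named sites. Only those sites carry a gene's counts below. A symbol is no proof of activity: Ube2f conjugates NEDD8, Uspl1 removes SUMO, and Usp6nl is a GTPase-activating protein for Rab GTPases.

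The libraries came from αTC1-6, a clonal mouse line of glucagon-secreting pancreatic alpha cells that derives from a tumour. Control cells received scramble siRNA (SCR) and knockdown cells received siRNA against Mettl14 (M14KD). Mettl14 encodes a subunit of the methyltransferase that writes N6-methyladenosine (m6A) on RNA. In m6A-eCLIP ultraviolet light fixes an m6A antibody to the RNA it touches, and the bound fragments are recovered (IP), while an Input library samples the RNA without that enrichment. There were 2 libraries in each of the 4 groups, IP and Input of SCR (replicates 1 and 2) and IP and Input of M14KD (replicates 3 and 4). Whether replicates were grown apart is not stated in the labels, and a p-value here reflects how far these particular libraries scatter, which may be technical.

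Ubiquitin is passed from an activating enzyme (E1) to a conjugating enzyme (E2, here the Ube2 genes), and a ligase (E3) joins it to a chosen protein. HECT ligases such as the Ube3 proteins carry ubiquitin themselves. RING ligases (many Rnf and Trim proteins) bring the E2 to the target. Cullins are scaffolds that hold a RING protein at one end and an F-box (Fbxo, Fbxl, Fbxw) or Kelch (Klhl) adaptor at the other. Ubiquitin-specific proteases (Usp) remove the tag. Chains of some kinds send a protein to the proteasome, and others change its place or partners. Secretory cells such as alpha cells rely on this system to clear misfolded proteins of the endoplasmic reticulum.

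Most sites lay far from the gene start, so sequence was at hand for only the few sites next to a RefSeq start. Windows of 29 bases around such sites are printed on the gene's strand (RefSeq, GRCm38.p6, the assembly named mm10). They are printed because in SCR cells every fitted site of them had fewer IP than Input reads relative to other sites (below). The capital is the base of the site, taken as the last base of the deposited interval, since the file header does not state how it counts positions. The windows lie at chr2:164769926-164769954 (+) for Ube2c, the E2 of the anaphase-promoting complex, and chr10:95515153-95515181 (+) for Ube2n, an E2 that builds chains used in signalling and DNA repair. Those of Rnf and Trim genes lie at chr10:79766906-79766934 (-) for Rnf126, chr2:102400851-102400879 (-) for Trim44, chr17:36837158-36837186 (+) for Trim26 and chr11:119390084-119390112 (+) for Rnf213. 1 lies at chr3:84815573-84815601 (+) for Fbxw7, the F-box protein that recognises phosphorylated cyclin E and Myc.
Ube2c: cccgcagttgccctTtcctctccacactc
Ube2n: gtgaggagagcggaGccggagacaagagc
Rnf126: gcgtgccatgcgtgAgcgtgcgcgggcgc
Trim44: ggcccagcgctgacGgctggccgggccct
Trim26: cccggagactgctgGgcggggagactgtg
Rnf213: tcatcgaagcgcgcCagtccgcgcgggcg
Fbxw7: cggtgagcgagcggGgccgccaccgccgc
Ube2b, an E2 of DNA damage tolerance, had the remaining site of this kind, at the edge of its window. Altogether 8 of the 832 sites (0.962%) lay from 250 bases before to 50 bases after a RefSeq start, against 1.62% of all named sites.

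Of 651 sites in the 129 genes with a known strand, 64.1% fell in the last 20% of the gene span and 8.60% in the first 20%. The same shares over all protein-coding genes were 62.4% and 9.55%. The spans hold exons, introns and untranslated regions that were not separated here, so a site is placed by its distance along the span only. The median gene of the set had 3.5 sites (3 over all protein-coding genes). At one end 34 genes had 1 site and 33 had 2, and at the other 22 genes had 10 or more. Rnf213, a very large RING ligase with an ATPase domain, had 33. Usp10, a deubiquitinase known for acting on p53 and for its place in stress granules, had 27, as did the RING ligase Trim62. Rnf168, which ubiquitylates histones around DNA breaks, had 19, while the Kelch adaptor Klhl9 and the deubiquitinase Usp47 had 16 each. Trim59 had 15, and Usp1 (which deubiquitylates proteins of DNA crosslink repair), Uspl1 and Klhl42 had 13 each. Neighbouring sites are not independent, since 70.3% of the set's sites lay within 100 bases of another.

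The set held 1.87% to 1.93% of all site counts in the IP libraries and 0.983% to 1.0% in the Input libraries, with no overlap between IP and Input. A larger share in IP was common among genes of all kinds. Scaled by library totals, the median log2 IP over Input in SCR cells was 0.75 over all genes and 0.95 over the set. Totals over all sites were 10207383 to 10918559 counts in IP and 3438530 to 3637740 in Input. The knockdown target itself was lower in the M14KD libraries: its 2 sites had 78 and 81 IP counts in SCR and 42 and 25 in M14KD, and 64 and 44 Input counts against 32 and 22. That is 43.4% of the SCR level in IP and 51.2% in Input, and neither difference passed the test over all genes (edgeR's quasi-likelihood test with Benjamini-Hochberg adjustment, adjusted p = 0.157 and 0.241). Of 10 alpha cell markers 8 had sites, Gcg among them. None of the markers listed for beta, delta, PP, epsilon, acinar, endothelial, fibroblast or white blood cells had a site, and of 2 ductal markers only Sox9 had one, at 4.30 to 5.77 CPM (counts scaled to a library total of 1000000) in the SCR IP libraries.

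How strongly the antibody recovered each gene was read from IP against Input within a genotype. In SCR cells 116 of 164 genes passed the test at an adjusted p under 0.05 (edgeR's quasi-likelihood test, Benjamini-Hochberg over all genes), against 69.9% of all 6376 genes tested. Of these, 69 were higher in IP and 47 lower, where all genes gave 35.2% and 34.7%. The median log2 IP over Input of the set was 0.23, against 0.04 for all genes. At site level 548 of 824 sites passed (67.4% of all sites did), 328 of them higher and 220 lower (34% and 33.4% of all sites). In M14KD cells 121 of 164 genes passed (71% of all genes), with a median of 0.28 against 0.02, and 544 of 824 sites did (66.9% of all sites). These values are relative to the bulk of genes, because the libraries were scaled by TMM, the trimmed mean of M-values. Scaled by column totals instead, the median of all genes in SCR moved to 0.75 and that of the set to 0.95, and the share of the set's calls that were higher went from 59.5% to 85.1% (from 50.3% to 79.0% over all genes). A gene slightly below 0 under TMM therefore lies above 0 under column totals, and the order of genes is what the scaling leaves alone.

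**Figure D1:**
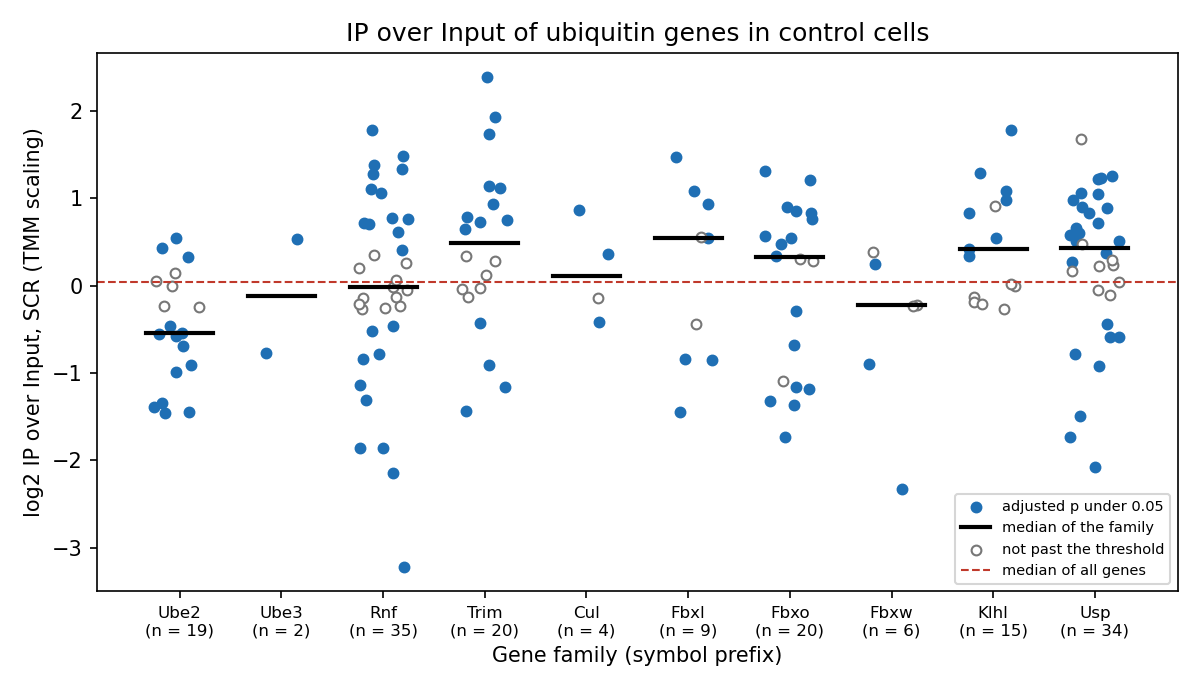
Log2 IP over Input in SCR cells (y axis, TMM scaling) for each gene with a fitted value, by family (x axis). 1 point is 1 gene, filled where the adjusted p was under 0.05. Thick bars are family medians and the dashed line is the median of all genes tested. The Ube2 genes have the lowest family median, -0.55, and the Fbxl genes the highest, 0.55.

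The E2 enzymes had the lowest median of the families. For the family counts here and below, the shares over all genes were 35.2% higher and 34.7% lower under TMM. Under column totals they were 62.6% and 16.7%. Of 19 Ube2 genes 11 were lower in IP than in Input and 3 were higher under TMM, while 5 were lower and 7 higher under column totals. Their median was -0.55 under TMM and 0.17 under column totals, which is -0.58 relative to the median of all genes under each, and 14 of the 19 lay below that median. Ube2n was among the lowest, with 406 and 348 IP counts in SCR and 216 and 213 Input counts (log2 IP over Input -1.45, SE 0.12). Ube2c, with 1258 and 1298 IP counts and 651 and 748 Input counts, stood at -1.39 (SE 0.10). Each of these genes had 1 site, the one whose sequence is printed above. The 7 sites of Ube2l3, an E2 that serves HECT and RBR ligases, were all lower in IP, and the gene stood at -0.99 (SE 0.11). The widely used E2 gene Ube2d3 stood at -0.55 (SE 0.10), with all 6 sites lower under TMM. Ube2d1, Ube2d2a and Ube2d3 encode nearly identical proteins, and how reads that match more than 1 copy were counted is not given in the sources used here. At the other end, Ube2f was at 0.55 (SE 0.09) and Ube2q1 at 0.43 (SE 0.09).

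Next to a RefSeq start, all 7 fitted sites of the set were below 0 in log2 IP over Input in SCR cells under TMM. Under column totals 6 of them were (medians -1.41 and -0.70). Over all genes 450 of 509 such sites (88.4%) were below 0 under TMM and 345 (67.8%) under column totals (medians -1.02 and -0.31). The site 11 bases after the first base of Ube2c was at -1.41 (SE 0.09) and the one 5 bases after that of Ube2n at -1.47 (SE 0.12). Rnf126 (-1.94, SE 0.29), Trim26 (-2.13, SE 0.35) and Ube2b (-1.29, SE 0.26) had few counts at their sites. Rnf213 (-0.92, SE 0.52) had 16 and 12 IP counts in SCR and was not called there, and it stood at 0.48 in M14KD cells. Trim44 was at -0.53 (SE 0.19) in SCR and -0.17 in M14KD. The other fitted sites were below 0 in M14KD as well. The Fbxw7 site, with 5 and 4 IP counts in SCR, was too low to be fitted. The letters GGAC, one form of the m6A consensus, were searched on the gene's strand in the windows and found in 0 of 8, against 72 of 517 windows (13.9%) over all genes. The base of the site was A in 2 of 8 windows and in 36.8% of all 517. A match or its absence describes these letters only.

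Both Ube3 ligases had few sites. Ube3a, the gene lost in Angelman syndrome, had 217 and 171 IP counts in SCR and 33 and 23 Input counts and was higher in IP (0.53, SE 0.22). Ube3b was lower under TMM (-0.77, SE 0.16). The 35 tested Rnf genes spread most widely, from -3.22 to 1.79, with 13 higher and 10 lower under TMM and 23 higher and 4 lower under column totals. Rnf167, a transmembrane ligase of endosomes and lysosomes, marked the low end: its 1 site had 16 and 15 IP counts in SCR and 34 and 27 Input counts. Rnf181 had 267 and 258 IP counts and 261 and 224 Input counts (-2.14, SE 0.12). Input counts there were close to IP counts, although the IP libraries held about 3 times as many counts over all sites. Rnf14 and Rnf128 were lower too, at -1.86 each (SE 0.16 and 0.29).

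At the high end stood Rnf157, a RING ligase best known from neurons, with 9043 and 9410 IP counts in SCR and only 554 and 563 Input counts (1.79, SE 0.09, and 1.10 with 1 site kept per 100 bases). Rnf103, a ligase of the endoplasmic reticulum, had 2387 and 2176 IP counts against 183 and 183 in Input (1.38, SE 0.11), and 11 of its 12 sites were higher. Among Trim genes 10 were higher and 4 lower under TMM (16 and 2 under column totals), with a median of 0.49 under TMM. Trim25, which ubiquitylates the RNA sensor RIG-I, had 1421 and 1461 IP counts and 87 and 93 Input counts (1.74, SE 0.15, and 0.93 with 1 site kept per 100 bases). Trim67 reached 2.39 (SE 0.36), but on 4 and 5 Input counts. Trim56 (1.94, SE 0.53), Klhl11 (1.78, SE 0.56) and Rnf114 (1.49, SE 0.46) also rested on Input counts of 0 to 8 in SCR. Trim56 and Klhl11 were no longer called without replicate 2, nor was Rnf114 without replicate 1, and their values were then 1.62, 0.98 and 0.83. Klhl11 was at 8.09 without replicate 1, where the Input library of SCR left in had 0 counts, so that value is no measure of size, and Rnf114 was at 2.68 without replicate 2.

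Of the cullin scaffolds, Cul1 (the core of SCF ligases) had 10271 and 8239 IP counts in SCR and 1170 and 939 Input counts and was higher (0.87, SE 0.11). Cul3, the partner of Kelch adaptors, was higher too (0.37, SE 0.12), and Cul4a was lower under TMM (-0.42, SE 0.12). Cul7 did not pass (-0.14, SE 0.24). F-box adaptors went both ways under TMM, with 15 of 35 higher and 12 lower, where all genes gave 35.2% and 34.7%. Fbxl5, which controls iron regulatory protein, was at 1.09 (SE 0.09), and Fbxl8 at 1.48 (SE 0.24) on 19 and 18 Input counts. At the low end lay Fbxw17 (-2.33, SE 0.57, 7 and 6 IP counts) and Fbxo44 (-1.74, SE 0.15). Of 15 Klhl genes 8 were higher and 0 lower under TMM. All 15 were higher under column totals, where 62.6% of all genes were higher too. Klhl9 was at 1.09 (SE 0.13) and Klhl2, an adaptor for WNK kinases, at 1.29 (SE 0.18) under TMM.

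The deubiquitinases had 17 higher and 8 lower of 34 genes tested under TMM, and 26 higher and 3 lower under column totals. Usp10 (0.98, SE 0.08) and Usp1 (0.84, SE 0.12) were higher, as was Usp9x (1.23, SE 0.19). Usp14, which sits on the proteasome, was the lowest at -2.07 (SE 0.12), with 371 and 325 IP counts in SCR against 326 and 286 in Input. Usp20 (-1.73, SE 0.24) and Usp19, a deubiquitinase anchored in the endoplasmic reticulum (-1.49, SE 0.15), were lower as well.

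IP over Input went with the number of sites. Of the 22 genes with 10 or more sites, 20 were higher and 1 lower (median 0.71), and of 30 tested genes with 1 site 5 were higher and 12 lower (median -0.24). Over all genes with 10 or more sites 65.0% were higher and 16.5% lower (median 0.45), and over those with 1 site 14.4% were higher and 45.2% lower (median -0.51). The way sites were picked is not given in the sources used here and may have used signal in these libraries. Site number and IP signal therefore cannot be taken as independent readings.

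**Figure D2:**
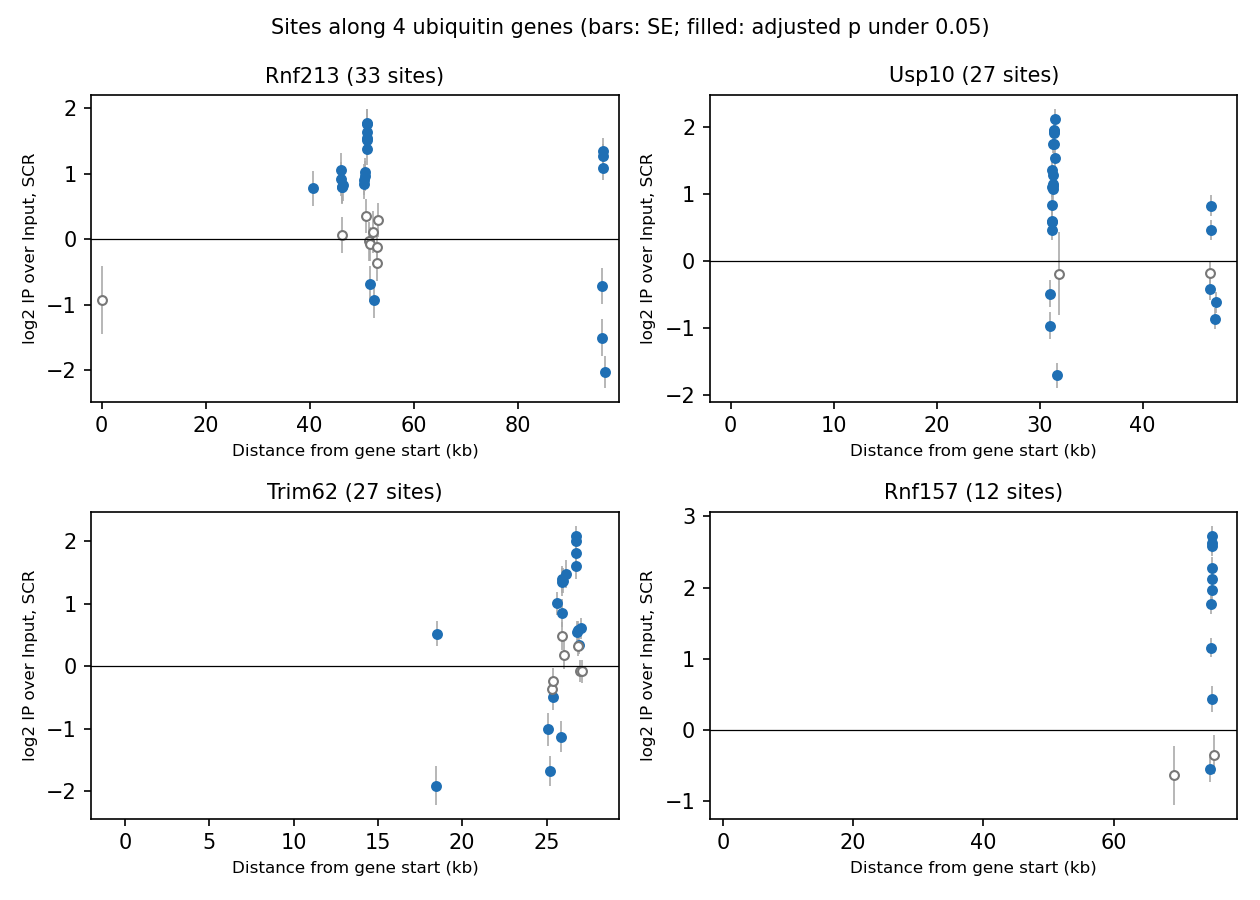
Log2 IP over Input in SCR cells (y axis, TMM scaling, bars 1 SE) of each fitted site against its distance from the gene start in kb (x axis) for Rnf213, Usp10, Trim62 and Rnf157. Filled points have an adjusted p under 0.05. Sites of opposite sign lie in the same gene, and in Rnf157 the highest sites form 1 narrow group near the gene's end.

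A gene's sum hid opposite values at its sites under TMM, the scaling used in this paragraph. Over all sites 34% were higher and 33.4% lower. Under column totals the set's lower sites went from 220 to 85, so many sites slightly below 0 change side. In Usp10 site values ran from -1.71 to 2.12, with 19 of 27 higher in IP and 6 lower. In Rnf213 they ran from -2.02 to 1.77 (19 of 33 higher, 5 lower), and in Trim62 from -1.91 to 2.09 (15 of 27 higher, 5 lower). Rnf168 had 10 of 19 higher and 4 lower, and Usp47 had 6 of 16 higher and 3 lower. Klhl9 was even, with 11 of 16 higher and 0 lower and values from -0.01 to 2.11. Trim25 held the highest single site of the set, at chr11:89016794, with 351 and 376 IP counts in SCR and 9 and 7 Input counts (3.22, SE 0.27). Its sites at chr11:89016471 (-1.07, SE 0.30) and chr11:89019585 (-1.34, SE 0.34) were lower. The lowest site of the set lay in Klhl4 at chrX:114530172 (-3.40, SE 0.40), with 13 and 6 IP counts in SCR and 22 and 20 Input counts.

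The knockdown comparison asked whether antibody-recovered reads, Input reads or their ratio differ when Mettl14 is reduced. In IP, no gene of the set passed: 0 of 165 tested were called by edgeR's quasi-likelihood test, as were 0% of all 6378 genes. At an unadjusted p under 0.05 there were 20 (12.1%), 9 higher in M14KD and 11 lower, against 14.1% of all genes (7.48% higher, 6.6% lower). The median log2 fold change was 0.02, against 0.01 over all genes. DESeq2's Wald test called 2, Fbxo5 and Rnf157 (0.706% of all genes). Without the IP library of SCR replicate 1, edgeR called 9 (among them Cul1, Cul3, Fbxo5, Rnf157, Usp1, Usp16, Usp34 and Usp47) of 166, against 2.92% of all genes. Without that of M14KD replicate 4 it called 3 of 165 (Fbxo5, Rnf157 and Usp34), against 2.63% of all genes.

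At single sites 5 of 825 passed in IP, against 0.63% of all 33348 sites. There were 2 lower sites in Rnf157 and 3 higher sites in Fbxo5, where 0.255% of all sites were higher and 0.375% lower. At an unadjusted p under 0.05 there were 102 sites (13.3% of all sites passed that level). The number moved with the libraries used: it was 62 of 827 without SCR replicate 1 (49 of them higher), 1 without SCR replicate 2, 0 without M14KD replicate 3 and 3 without M14KD replicate 4. The calls over all sites moved with it, at 4.25%, 0.607%, 0% and 0.254%, and 946 of the 1422 without SCR replicate 1 were higher. It was 2 with DESeq2's Wald test (0.354% of all sites) and 10 with all 8 libraries in 1 model (0.899%).

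Rnf157 spans chr11:116336345-116413391 on the minus strand. Its 13 sites together had 9043 and 9410 IP counts in SCR, or 859 ± 43.6 CPM (SD, n = 2). M14KD libraries gave 6773 and 7100, or 669 ± 38.1 CPM. Both M14KD libraries were below both SCR libraries in CPM, as was so for 26.3% of all genes tested in IP. Both were above in 19.8% of all genes. The gene-level log2 fold change was -0.34 (SE 0.07), with an adjusted p of 0.183 from edgeR's quasi-likelihood test, the lowest in the set. Of the 13 sites 12 were below 0 and 11 had an unadjusted p under 0.05. The sites come from the same libraries and may share reads, so they are not independent readings of the change. At chr11:116338274 the counts were 1062, 1053, 744 and 766 in the same order (log2 fold change -0.41, SE 0.08, adjusted p = 0.0282 by edgeR's test). At chr11:116338300 they were 1328, 1407, 987 and 1014 (-0.38, SE 0.08, adjusted p = 0.0425). Both sites fell, both lie 97.5% of the way along the span, and both were far higher in IP than in Input in SCR cells (2.12, SE 0.14, and 2.73, SE 0.14).

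In Input, Rnf157 had 554 and 563 counts in control cells and 398 and 444 after knockdown, again without overlap. Of all genes tested in Input, 21.1% lay apart in that direction in CPM and 19.7% in the other. The Input log2 fold change was -0.36 (SE 0.11, adjusted p = 0.294 by edgeR's test), beside -0.34 in IP. With 1 site kept per 100 bases it was -0.16 (SE 0.16) in Input and -0.37 (SE 0.08) in IP. The difference between the IP and Input changes was 0.01 (SE 0.13) for the gene, -0.22 (SE 0.19) with 1 site kept per 100 bases, and 0.31 (SE 0.24) and 0.29 (SE 0.26) at the sites that fell, and IP over Input was 1.79 in SCR and 1.80 in M14KD.

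Fbxo5 (Emi1, an inhibitor of the anaphase-promoting complex that is itself turned over in each cell cycle) spans chr10:5799158-5805465 on the minus strand. Its 12 sites had 2905 and 2347 IP counts in SCR, or 244 ± 31.2 CPM (SD, n = 2). M14KD libraries gave 3556 and 3071, or 319 ± 25.5 CPM. Both M14KD libraries were above both SCR libraries, and the gene-level difference was 0.41 on the log2 scale (SE 0.10, adjusted p = 0.219 by edgeR's test). All 12 sites were above 0 and 9 had an unadjusted p under 0.05, though these sites too share libraries and are not independent. The sites that rose were chr10:5802383, with counts of 367, 318, 516 and 415 (0.52, SE 0.11, adjusted p = 0.0368 by edgeR's test), chr10:5802385, with 294, 265, 417 and 339 (0.51, SE 0.11, adjusted p = 0.0435), and chr10:5802246, with 260, 220, 368 and 294 (0.54, SE 0.12, adjusted p = 0.0448). They lie 48.8% to 51.0% of the way along the span, and the first pair is only 2 bases apart.

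SCR Input libraries had 430 and 357 counts of Fbxo5 and M14KD Input libraries 515 and 412, so the groups overlapped in counts. In CPM they were 119 and 98.1 against 142 and 120, so the groups lay apart by a small margin, in the same direction as IP. The Input log2 fold change was 0.28 (SE 0.13). It was 0.15 without SCR replicate 2 and 0.15 without M14KD replicate 3. The difference between IP and Input changes was 0.12 (SE 0.17) for the gene, -0.06 (SE 0.18) with 1 site kept per 100 bases, and 0.36 (SE 0.26), 0.44 (SE 0.26) and 0.38 (SE 0.30) at the sites that rose. No site of either gene passed that test.

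**Figure D3:**
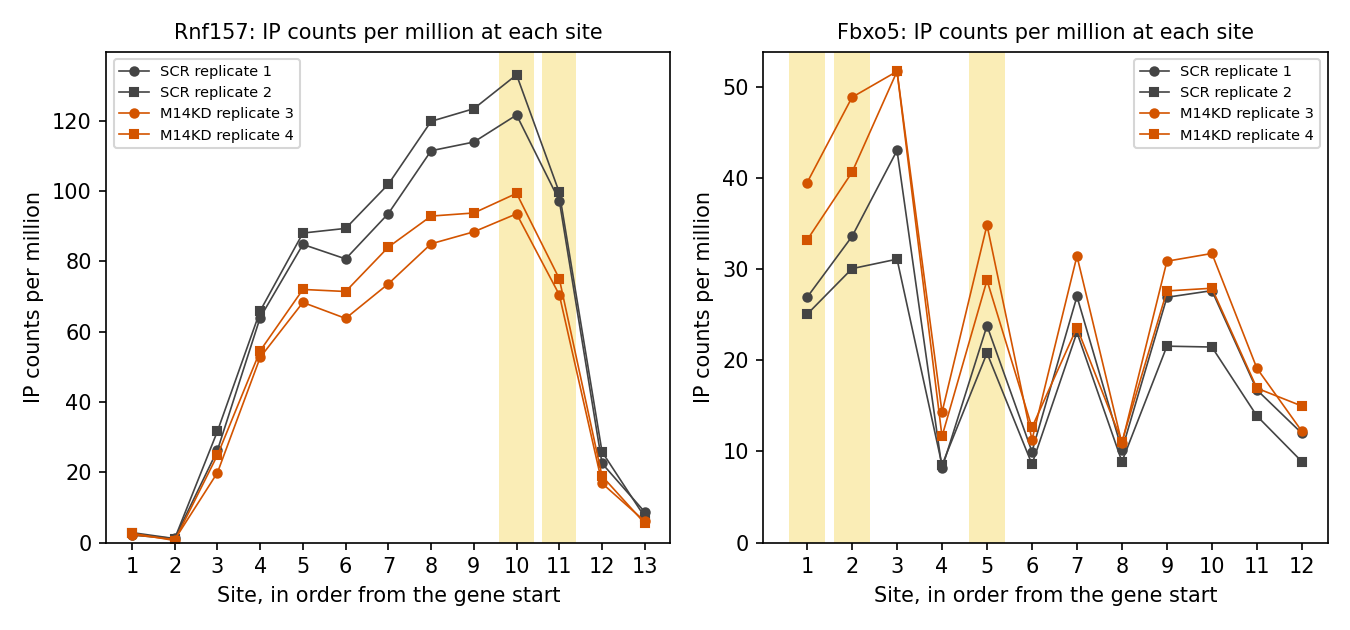
IP counts in CPM (y axis) at each site of Rnf157 (left) and Fbxo5 (right), in order from the gene start (x axis), 1 line per library. Shaded sites had an adjusted p under 0.05 in IP. At the shaded sites both M14KD libraries lie below both SCR libraries in Rnf157 and above both in Fbxo5.

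Of the other genes none passed in IP, and several of the largest with groups that did not overlap in CPM are given as values only. Such separation was common among all genes, as given above. In the E2 and HECT group Ube2n had 406 and 348 IP counts in SCR and 503 and 421 in M14KD (log2 fold change 0.36, SE 0.12), and Ube3b had 309 and 350 against 240 and 254 (-0.34, SE 0.12). Among RING genes Rnf146, a ligase that recognises poly-ADP-ribose and acts on axin, had 2331 and 2067 against 2690 and 2203 (0.22, SE 0.09, and 0.11 without M14KD replicate 3). Its groups overlapped in counts but not in CPM, as did those of Usp53 below. Trim67 had 105 and 122 against 82 and 72 (-0.49, SE 0.17).

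Among cullin ligase parts, Cul7 had 126 and 148 IP counts in SCR and 88 and 96 in M14KD (-0.50, SE 0.17). Fbxo31, which acts on cyclin D after DNA damage, had 110 and 115 against 77 and 74 (-0.50, SE 0.16). Klhl36 (-0.68, SE 0.27) and Fbxo48 (0.79, SE 0.33) had 1 site each with at most 55 counts per library. Klhl36 was at -0.37 without SCR replicate 1 and Fbxo48 at 0.49 without M14KD replicate 3. Among deubiquitinases Usp19 had 239 and 225 against 164 and 159 (-0.45, SE 0.12), and Usp53 had 122 and 89 against 145 and 121 (0.41, SE 0.18). The Usp53 value was 0.62 without SCR replicate 1 and 0.21 without SCR replicate 2. The lowest adjusted p among these genes was 0.221 (edgeR's quasi-likelihood test, Usp19).

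Input counts here cover the listed sites only, so they are a partial reading of RNA level. In bulk libraries they cannot separate fewer cells that express a gene from less of its RNA per cell. In Input, 0 of 147 genes were called by edgeR's quasi-likelihood test, against 0.0172% of all 5824 genes, and 0 by DESeq2's Wald test. There were 11 genes (7.48%) at an unadjusted p under 0.05, 8 higher in M14KD and 3 lower, against 10.4% of all genes (5.41% higher, 5.03% lower). Ube2n had the lowest adjusted p, 0.167 by edgeR's test, with 216 and 213 counts in SCR and 304 and 291 in M14KD (0.52, SE 0.12). Rnf146 had 273 and 268 against 377 and 348 (0.47, SE 0.12). Usp10 ran the other way, with 1462 and 1628 against 1221 and 1260 (-0.27, SE 0.09). With 1 site kept per 100 bases the Usp10 value was -0.09 (SE 0.10). Ube2l3 had 865 and 1021 against 699 and 809 (-0.27, SE 0.11), and its value ranged from -0.42 to -0.14 with each replicate left out.

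Further Input values came from lower counts. Klhl2 had 37 and 39 in SCR and 68 and 47 in M14KD (0.64, SE 0.24), Klhl4 had 46 and 59 against 77 and 77 (0.60, SE 0.20), and Rnf144a had 10 and 5 against 24 and 11 (1.26, SE 0.50). Without M14KD replicate 3 the Klhl2 value was 0.39 and that of Rnf144a 0.63. Usp16, a histone deubiquitinase, had 365 and 270 against 405 and 365 (0.33, SE 0.14), with groups that touch in counts and lie apart in CPM. The Usp16 value was 0.55 without SCR replicate 1 and 0.13 without SCR replicate 2. At site level 0 of 742 Input sites passed (0 also with DESeq2's Wald test), against 0.0929% of all sites, and 59 had an unadjusted p under 0.05 (8.69% of all sites did). The Ube2n site was nearest, at 0.53 (SE 0.11, adjusted p = 0.0544 by edgeR's test), and it passed when only sites with a mean count of at least 20 were tested.

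**Figure D4:**
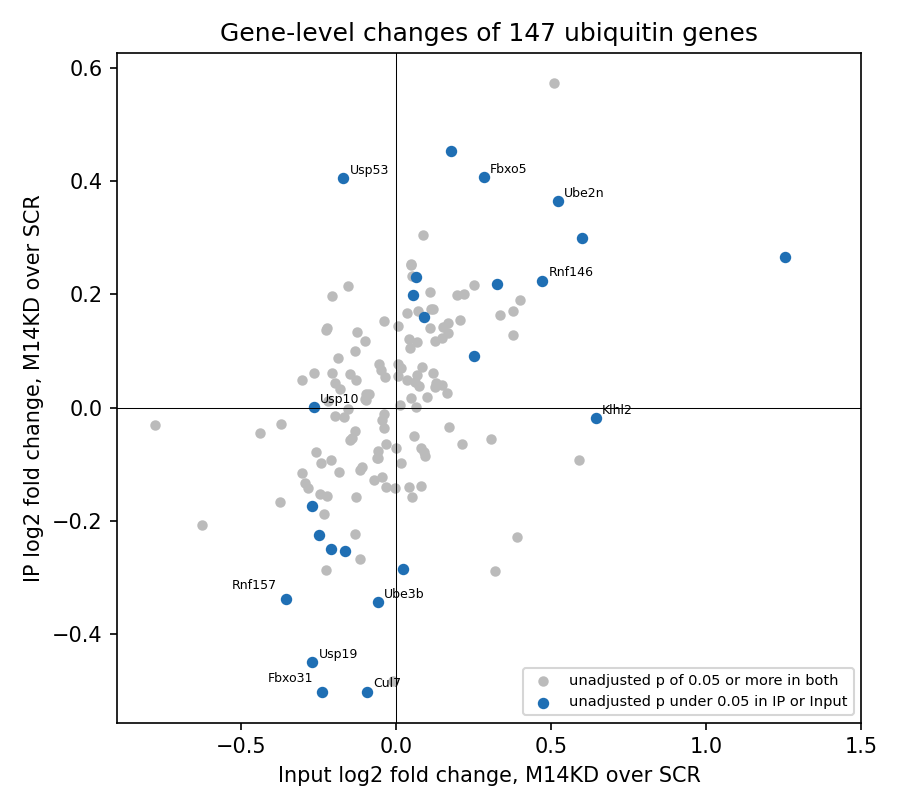
Log2 fold change of M14KD over SCR in IP (y axis) against that in Input (x axis) for the 147 genes tested in both. Blue points have an unadjusted p under 0.05 in IP or Input, and those the text turns on are named. Rnf157 and Usp19 lie low on both axes, Fbxo5, Ube2n and Rnf146 high on both, and Usp10 and Klhl2 near 0 in IP.

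IP and Input changes went the same way in 105 of the 147 genes (71.4%), and their Pearson correlation across these genes was 0.44, against 68.7% and 0.44 over 5817 genes of all kinds. The points are genes of the same 8 libraries, so these figures are a description. The change of IP over Input between genotypes was tested in 1 model of all 8 libraries. No gene of 164 passed edgeR's quasi-likelihood test, as was so for 0% of all 6376 genes, and 3 had an unadjusted p under 0.05 (2.63% of all genes did). At site level 0 of 824 passed (0% of all 33356), and 33 had an unadjusted p under 0.05 (3.72% of all sites did). Usp10, at 14208 and 14965 IP counts in SCR and 13451 and 14291 in M14KD, had an IP change of 0.00 (SE 0.07) beside its lower Input value, which gave a difference of 0.26 (SE 0.12). With 1 site kept per 100 bases that difference was 0.09 (SE 0.13). Klhl2 had 478 and 416 IP counts against 419 and 420, and a difference of -0.67 (SE 0.25), which was -0.38 without M14KD replicate 3. Trim7 gave 2.54 (SE 0.72), on Input counts of 9 and 11 in SCR and 2 and 1 in M14KD. DESeq2's Wald test called none of the set in this comparison either.

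Other parts of the pathway were read from lists of genes outside the 10 symbol groups. In IP, Input and the IP over Input change, 0 genes of each list were called by edgeR's quasi-likelihood test, and at an unadjusted p under 0.05 3 and 4 of 49 other ligases (higher and lower) were the most found in Input and 1 gene of a list in the change. Over all genes 10.4% reached that level in Input and 2.63% in the change. At an unadjusted p under 0.05 in IP there were 1 higher and 1 lower of 11 E1 and ubiquitin-like genes, 4 and 4 of 50 other ligases and subunits, 1 and 1 of 19 other deubiquitinases, and 4 and 4 of 23 proteasome and shuttle genes, where all genes gave 7.48% higher and 6.6% lower. Nedd8, the modifier that activates cullins, had 676 and 796 IP counts in SCR and 933 and 931 in M14KD (0.41, SE 0.10). Ddb1, the cullin 4 adaptor, had 674 and 694 against 468 and 538 (-0.37, SE 0.11). Nfe2l1, the transcription factor that raises proteasome genes, had 14742 and 16391 against 12324 and 12310 (-0.27, SE 0.08). The deubiquitinase Otub2 had 2208 and 2240 against 1839 and 1641 (-0.28, SE 0.08). In IP over Input in SCR cells under TMM, where 35.2% of all genes were higher and 34.7% lower, 1 E1 or ubiquitin-like gene was higher and 9 of 11 lower (median -0.89). Of 23 proteasome and shuttle genes 4 were higher and 18 lower (median -0.82). Other deubiquitinases gave 4 higher and 10 lower of 19 (median -0.63), and other ligases 16 higher and 15 lower of 50 (median 0.20). Under column totals, where 62.6% of all genes were higher and 16.7% lower, the counts were 3 higher and 6 lower for E1 and ubiquitin-like genes and 8 and 10 for proteasome and shuttle genes. They were 8 and 7 for other deubiquitinases and 36 and 3 for other ligases.

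The 9 genes whose every site also lay in another protein-coding span cannot be told apart from that neighbour. They were Fbxl14 (with Wnt5b), Fbxl15 (Cuedc2), Fbxl2 (Ubp1), Fbxo22 (Nrg4), Rnf113a2 (Bbof1), Rnf139 (Tatdn1), Rnf214 (Bace1), Trim32 (Astn2) and Usp22 (Tnfrsf13b). They had from 1 site (Usp22) to 22 sites (Rnf139). Klhl17, Rnf146, Usp34 and Usp37 were among genes that shared some of their sites in the same way. None of the shared sites passed in IP. Fbxw8, Fbxw17 and Fbxo32 were too low to be tested in IP. Sites may also lie in a noncoding or antisense gene, since the strand of a site is not given.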

How the data were processed

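The deposited table holds whole-number counts per site for 8 libraries and 1 list of 33774 sites, per the file headers, and the counts are not normalized. The submitters' processing notes name STAR, cutadapt and UMI-tools, and mm10 as the build. Not given in the sources used here are versions, site calling, the counting window and the treatment of duplicate molecules. Sites were named from RefSeq gene spans (GRCm38.p6), 1 protein-coding gene per site, and counts were summed per gene. Tests ran on all genes or sites with edgeR 4.0.16 in R 4.3.3 (filterByExpr, TMM, quasi-likelihood test, Benjamini-Hochberg, threshold 0.05). The same fits were run on simulated counts with known changes. Those counts lacked the difference in composition between IP and Input libraries, so they do not cover its effect. DESeq2 1.42.0, other scalings and filters, 1 site per 100 bases, each replicate left out and a replicate block were alternatives. A fold change is log2, with SE from the F statistic. CPM values use column totals.

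The members and lists were chosen with earlier results of these data known. Named were the genes with most sites, the 2 highest IP sums per family, up to 6 genes a direction at unadjusted p under 0.05 with groups apart, genes with called sites, the 8 highest and lowest called IP over Input values, the lowest-p genes of each list, Mettl14 and Gcg. Some genes that this rule names are not reported here. Further genes named for a family's range, start-window sites or shared sites were chosen after their values were seen. Replicate numbers were taken as pairing IP with Input: deviations from group means correlated at 0.306 (SCR) and 0.207 (M14KD) over 6039 genes, where the 2 pairs of a group mirror each other. Within groups, sites differed by more than counting error (chi-square per degree of freedom 1.38 to 2.56). Pairs across the genotypes gave 2.51 to 5.01 in IP and 1.60 to 2.22 in Input. In IP, SCR replicate 1 differed about as much from M14KD replicate 4 (2.51) as from SCR replicate 2 (2.56).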

Additional observations from a re-analysis of the deposited data

How the results depend on the processing

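In IP at gene level the count of called genes, 0, became 2 with DESeq2's Wald test and ranged from 0 to 9 with each replicate left out. In IP at site level the count, 5, became 8 with DESeq2 size factors, 8 with column totals, 3 with no filter on low counts, 2 with DESeq2's Wald test and 10 with all 8 libraries in 1 model, and ranged from 0 to 62 with each replicate left out. In Input at site level the count, 0, became 1 with a mean count of at least 20. The causes were not tested. The IP over Input counts of calls in either direction stayed within 1.5 times under every alternative run: 98 to 134 genes and 435 to 624 sites in SCR, 96 to 132 genes and 404 to 631 sites in M14KD. The split by direction did not: with column totals it was 114 genes higher and 20 lower and 539 sites higher and 85 lower in SCR, and 110 and 22 genes and 542 and 89 sites in M14KD. With the replicate block the counts were 121 genes and 571 sites in SCR and 127 genes and 563 sites in M14KD. The IP over Input change stayed at 0 genes and 0 sites. The block was not run for the IP and Input comparisons of M14KD with SCR. For single genes and sites, 486 alternative values kept direction and side of the threshold, 17 lost the call, 7 gained it and 4 turned direction. Those 4 were uncalled IP over Input changes: with 1 site kept per 100 bases Fbxo5 was at -0.061 and Rnf157 at -0.22, and with each replicate left out Rnf157 ranged from -0.030 to 0.054. The Rnf157 sites were called in 9 and 8 of 11 settings, and the Fbxo5 sites in 8 of 11, 7 of 10 and 7 of 10, since DESeq2 gave no adjusted p for the last pair. Counts under about 20 in Input limit the IP over Input values of Trim56, Trim67, Klhl11, Rnf114 and Trim7.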
